A study of Mus musculus with 12 samples.

Results

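The genes described here encode lysosomal proteins of mouse dendritic cells: membrane proteins, soluble hydrolases other than the cathepsins, their cofactors, and the transcription factors of the MiT family. They were taken from a list of 39 gene symbols set by function, with no threshold on a measured value. All 39 were found among the 11786 genes of the expression table, and all 39 passed the filter on low values. By role they divide into 10 membrane proteins, 7 enzymes of glycosaminoglycan breakdown, 8 enzymes and cofactors of sphingolipid breakdown, 6 enzymes that digest glycoproteins or glycogen, 5 genes for proteolysis, acyl and phosphate removal including progranulin, and 3 regulators.

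RNA sequencing had been done on dendritic cells grown from mouse bone marrow with the cytokine GM-CSF, from mice that were wild type or labelled Ythdf1-/-. The YTHDF1 protein recognises N6-methyladenosine, a mark that many mRNAs carry. The 4 groups compared held 2 libraries each: wild type alone, wild type with lysate, KO-labelled alone and KO-labelled with lysate, where lysate means that the dendritic cells spent the night with dead (necrotic) B16-OVA melanoma cells, a mouse line with an ovalbumin gene, before they were purified. Cultures grown with GM-CSF are known to hold macrophage-like cells beside dendritic cells, and neither the age of the mice nor their number is given in the sources used here. A further 4 samples, made by immunoprecipitation of YTHDF1-bound RNA (2 inputs and 2 precipitates), were not analysed here.

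The lysosome is the acidic compartment in which material taken up by phagocytosis is digested. Its soluble enzymes are made in the endoplasmic reticulum, tagged with mannose 6-phosphate and delivered through endosomes, while proteins such as LAMP1 and LAMP2 line its membrane. Many lysosomal genes carry a short DNA motif, CACGTG and longer forms of it, to which TFEB, TFE3 and MITF can bind, and these factors are held in the cytoplasm by the kinase mTOR when nutrients are plentiful. In dendritic cells the strength of lysosomal digestion is known to affect how much antigen survives for presentation to T cells.

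Promoter windows from 250 bases before to 50 bases after the annotated start were searched on both strands for that motif. RefSeq windows on GRCm38.p6 were matched for 36 of the 39 genes; Aga, Asah1 and Galns had no entry. CACGTG occurred in 8 of these 36 genes (22.2%), against 8.09% of the 27025 genes in the reference table. The 8 genes were Lamp1, Mcoln1, Gla, Glb1, Gaa, Naglu, Sgsh and Arsa. The longer form TCACGTGA, which contains CACGTG, occurred in Mcoln1 and Gla (5.56%), against 1.12% of the reference genes. The reference includes genes absent from the expression table, so these shares come from unlike sets of genes. Windows of 5 genes are printed to show how the number and place of the motif varied: a membrane protein with many copies, a channel and 3 enzymes. The 3 enzymes were picked because they passed with lysate in wild type, Gla and Naglu higher and Sgsh lower. The windows of Glb1, Gaa and Arsa are not printed. Each line gives the 250 bases before the start, 5′ to 3′ on the strand of the gene, with CACGTG in capitals.
Lamp1: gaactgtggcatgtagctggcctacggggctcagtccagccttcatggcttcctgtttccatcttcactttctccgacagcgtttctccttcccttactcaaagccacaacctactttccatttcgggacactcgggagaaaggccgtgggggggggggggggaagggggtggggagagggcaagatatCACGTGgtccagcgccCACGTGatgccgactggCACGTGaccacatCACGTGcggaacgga
Mcoln1: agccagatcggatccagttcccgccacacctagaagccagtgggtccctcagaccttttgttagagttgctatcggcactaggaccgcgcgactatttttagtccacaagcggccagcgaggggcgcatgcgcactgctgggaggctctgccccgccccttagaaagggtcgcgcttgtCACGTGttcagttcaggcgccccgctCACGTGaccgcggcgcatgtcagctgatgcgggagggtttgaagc
Gla: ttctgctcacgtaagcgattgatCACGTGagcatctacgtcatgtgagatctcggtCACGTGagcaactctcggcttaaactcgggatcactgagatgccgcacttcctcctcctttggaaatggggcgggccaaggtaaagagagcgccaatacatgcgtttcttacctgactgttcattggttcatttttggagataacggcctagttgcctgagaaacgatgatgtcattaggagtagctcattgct
Naglu: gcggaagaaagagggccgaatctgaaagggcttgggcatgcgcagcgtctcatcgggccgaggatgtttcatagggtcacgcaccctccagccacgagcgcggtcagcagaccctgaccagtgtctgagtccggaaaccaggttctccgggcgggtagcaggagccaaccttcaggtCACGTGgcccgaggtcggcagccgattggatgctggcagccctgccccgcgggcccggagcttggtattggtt
Sgsh: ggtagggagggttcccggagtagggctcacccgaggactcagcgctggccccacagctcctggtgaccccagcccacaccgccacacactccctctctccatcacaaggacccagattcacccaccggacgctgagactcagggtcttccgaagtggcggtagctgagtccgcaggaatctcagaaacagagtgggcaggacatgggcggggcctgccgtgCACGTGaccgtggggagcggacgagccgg
The Lamp1 window lies at chr8:13158911-13159160 on the plus strand and held 4 copies, whose first bases were at -61, -45, -28 and -15 from the start. Mcoln1, which encodes the lysosomal calcium channel TRPML1, held 2 copies at -71 and -45 (chr8:3500269-3500518, plus strand). Gla, for alpha-galactosidase A, also held 2, farther out at -227 and -194 (chrX:134601006-134601255, minus strand). Naglu (chr11:101069844-101070093, plus strand) and Sgsh (chr11:119355511-119355760, minus strand) encode enzymes of heparan sulfate breakdown and held 1 copy each, at -73 and -29. A match of letters is a description of the window and shows no binding.

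Values in the table were log2 levels between 3.24 and 17.88, and the depth behind them is unknown because no counts were given. The 2 libraries of a group differed with an SD over all genes of 0.11 to 0.16. The Ythdf1 transcript did not pass the test between genotype labels: its log2 level was 9.58 and 9.43 in wild type alone, 9.72 and 9.58 in wild type with lysate, 9.53 and 9.43 in KO-labelled alone, and 9.51 and 9.46 in KO-labelled with lysate. A level for the whole gene does not check a deletion that leaves the transcript in place, so genotype groups are named by their labels. All 12 listed dendritic cell markers and all 12 listed macrophage markers were in the table, with 10 of 11 neutrophil and 5 of 13 melanocyte markers. In bulk RNA, fewer cells of a type and less RNA per cell cannot be told apart.

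Some of the 39 genes had values near the top of the whole table, before any division by transcript length. Psap, which encodes the precursor of the saposin cofactors of sphingolipid digestion, had the highest value of the whole table in each of the 4 wild-type libraries, and ranked 3 in both KO-labelled libraries alone and 2 in both with lysate. Levels between genes were compared per kb of the longest annotated coding transcript, whose length may differ from the isoform these cells use. On this log2 per kb scale, Psap stood at 16.17 in wild type alone, followed by Gpnmb (14.26), Laptm5 (13.92), Lamp1 (13.11), Grn (13.03), Cd63 (12.55) and Cd68 (12.15). Gpnmb encodes a glycoprotein of phagolysosomes and melanosomes, Laptm5 a lysosomal membrane protein of blood cells, Grn progranulin, and Cd68 a LAMP-like glycoprotein of phagocytes. At the other end stood Smpd1 (6.09), Sgsh (5.83) and Arsb (5.72), which encode acid sphingomyelinase, heparan N-sulfatase and arylsulfatase B. The sulfatase genes Galns, Arsa, Ids, Sgsh and Arsb all ranked 30 or lower among the 39 in both untreated groups, and 27 or lower in both groups with lysate. The 39 genes had a median log2 level of 10.83, against 8.57 for all genes with a transcript, and a median transcript GC content of 52.9% against 50.1%.

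**Figure D1:**
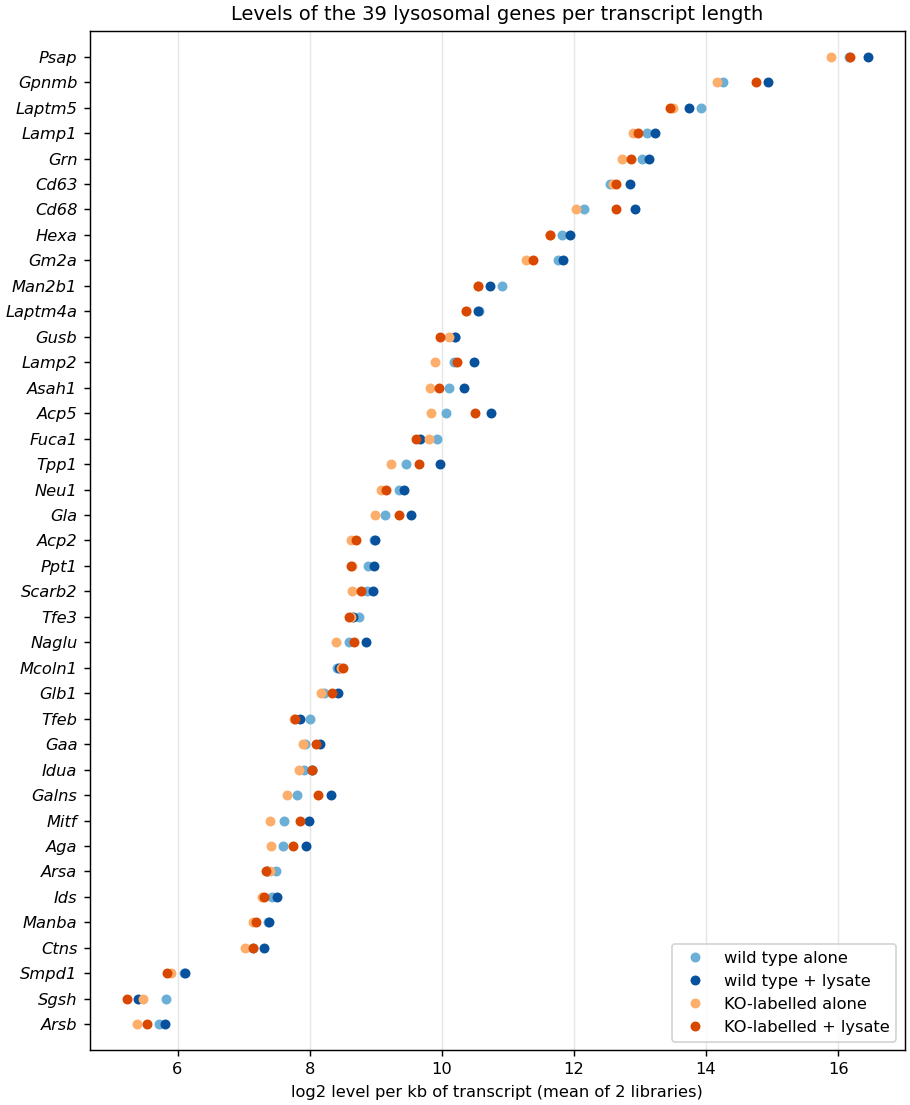
Mean log2 level per kb of transcript (x axis, 2 libraries a group) of each of the 39 genes (y axis, ordered by wild type alone), with 1 point for each of the 4 groups. Psap is highest (16.17 in wild type alone) and Smpd1, Sgsh and Arsb are lowest in every group, and differences between these genes are far wider than differences between groups.

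Lysate raised 11 of the 39 genes in wild-type dendritic cells and lowered 2, while 26 did not pass the test. Over all 11785 genes tested, 10.2% were higher and 11.3% lower with lysate in the same fit. The median log2 change of the 39 genes was 0.10, against -0.010 for all genes. The genes that rose were spread over every role: the membrane proteins Cd68, Gpnmb and Cd63, the glycosaminoglycan enzymes Galns and Naglu, the sphingolipid genes Gla and Psap, the glycoprotein enzyme Aga, the acid phosphatase Acp5, the peptidase Tpp1, and the regulator Mitf. The genes that fell were Sgsh and Fuca1.

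Cd68 had log2 levels of 12.40 and 12.49 in wild type alone and of 13.37 and 13.07 with lysate. Both lysate libraries lay above both untreated ones, a rise of 1.71-fold (log2 change 0.77 ± 0.089, SE of the limma fit, adjusted p = 9.11e-05). Acp5, tartrate-resistant acid phosphatase of macrophages and osteoclasts, stood at 10.56 and 10.64 alone and at 11.22 and 11.35 with lysate. That was a rise of 1.61-fold (0.68 ± 0.073, adjusted p = 4.65e-05), again with no overlap. Gpnmb stood at 16.13 and 16.17 alone and at 16.83 and 16.82 with lysate, so the replicates lay closer to each other than for Cd68. Its rise was 1.60-fold (0.68 ± 0.066, adjusted p = 2.2e-05), the smallest adjusted p among the 39 genes in this contrast. Galns encodes the sulfatase that acts on keratan sulfate and chondroitin 6-sulfate. It had 9.14 and 9.17 alone and 9.73 and 9.61 with lysate, a rise of 1.43-fold (0.51 ± 0.076, adjusted p = 0.000545).

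Tpp1, tripeptidyl peptidase 1, rose by the same 1.43-fold (0.51 ± 0.064, adjusted p = 0.000177), from 11.30 and 11.27 to 11.84 and 11.76. Smaller rises were those of Gla (log2 change 0.40), Mitf (0.38), Aga (0.35), Cd63 (0.31), Psap (0.28) and Naglu (0.26), with adjusted p between 0.00243 and 0.0305. For Psap, the most abundant of them, the log2 levels were 17.54 and 17.61 alone and 17.82 and 17.88 with lysate. Because Psap was already at the top of every wild-type library, quantile normalization sets its wild-type change to 0 by construction.

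Sgsh was the member that fell most with lysate in wild type, from 7.89 and 8.02 to 7.56 and 7.49, a 1.35-fold drop (log2 change -0.43 ± 0.090, adjusted p = 0.00469). Fuca1, alpha-fucosidase, went from 11.22 and 11.30 to 10.95 and 11.06 (-0.26 ± 0.068, adjusted p = 0.017). Both falls were lost without wild-type alone library 2, which left 0 lower genes, and that of Fuca1 also without wild-type lysate library 1, which left 1. Among the 11 rises, those of Cd63, Cd68, Gpnmb, Gla, Galns, Tpp1 and Acp5 passed in each of the 18 other settings tried. Leaving out single wild-type libraries ended the calls of Aga (alone 1, alone 2 or lysate 2), Psap (the same 3), Mitf (alone 2 or lysate 1) and Naglu (alone 1, lysate 1 or lysate 2); that of Naglu was also lost without either KO-labelled lysate library.

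The KO-labelled cells gave nearly the same list: lysate raised 10 of the 39 genes and lowered 0, against 8.28% higher and 6.92% lower among all genes. Those 10 were the wild-type list without Cd63, that is 90.9% of the wild-type rises and 100.0% of the KO-labelled ones. The median log2 change of the 39 genes was 0.096, against -0.0013 for all genes. Acp5 rose from 10.41 and 10.34 to 10.995 and 11.09 (1.59-fold, log2 change 0.67 ± 0.073, adjusted p = 8.97e-05). Cd68 rose from 12.39 and 12.27 to 12.96 and 12.92 (1.53-fold, 0.61 ± 0.089, adjusted p = 0.000637). In neither gene did a library with lysate overlap one without.

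Gpnmb moved from 16.08 and 16.02 to 16.63 and 16.66 in KO-labelled cells (1.51-fold, log2 change 0.59 ± 0.066, adjusted p = 0.000109). Galns moved from 9.06 and 8.96 to 9.45 and 9.51 (1.38-fold, 0.47 ± 0.076, adjusted p = 0.00133). The other rises were Mitf (0.45), Tpp1 (0.42), Gla (0.37), Aga (0.32), Psap (0.29) and Naglu (0.28). The count fell to 5 without KO-labelled lysate library 2, when Gla, Naglu, Psap, Aga and Mitf no longer passed, and was 7 without lysate library 1, which ended the calls of Naglu, Psap and Aga. Without KO-labelled alone library 1 the calls of Naglu and Aga were lost, and without alone library 2 those of Naglu and Psap. The rises of Cd68, Gpnmb, Galns, Tpp1 and Acp5 held in every setting tried. Sgsh and Fuca1 had changes of -0.24 and -0.20 that did not pass.

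**Figure D2:**
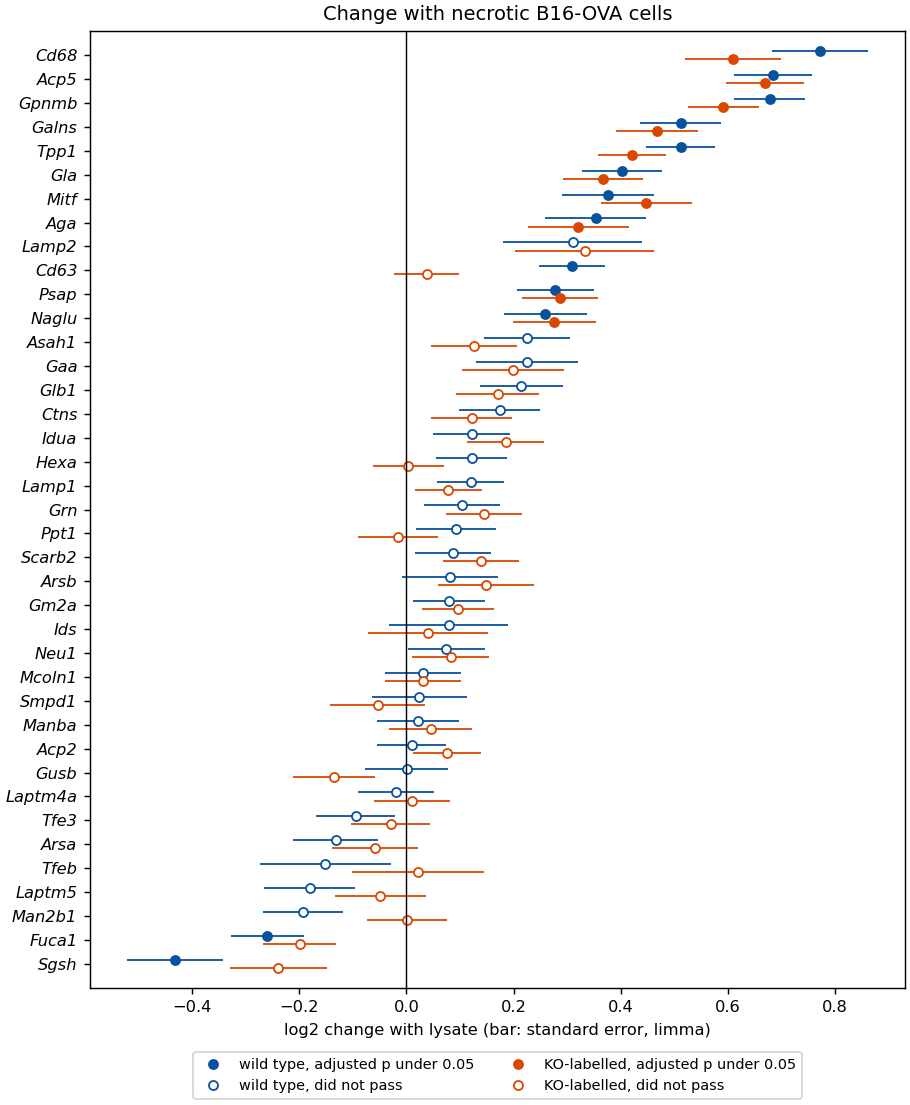
Log2 change with lysate (x axis, bar: SE of the limma fit) of each gene (y axis) in wild-type (blue) and KO-labelled cells (orange), with filled points for adjusted p under 0.05. Cd68, Acp5 and Gpnmb have the 3 highest changes in both, from 0.59 to 0.77, and Cd63 is filled only in blue.

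Across the 39 genes, the changes in the 2 genotype labels had a Pearson correlation of 0.936 and a Spearman correlation of 0.898, and 33 of 39 had the same sign. Over all genes the same 2 correlations were 0.753 and 0.699. The contrasts share no library, but genes of one cell are not independent replicates, so these values only describe the likeness. Members past the threshold for a different lysate effect between the labels numbered 0, where 0.11% of all genes passed. At an unadjusted p under 0.05 there was 1 member, Cd63, and 980 genes in all. Cd63, a tetraspanin of late endosomes and melanosomes, had log2 levels of 12.69 and 12.70 in wild type alone and of 13.01 and 13.00 with lysate. In KO-labelled cells it had 12.72 and 12.77 alone and 12.78 and 12.78 with lysate. The difference of its lysate effects was -0.27 ± 0.086 (adjusted p = 0.41), so Cd63 passing in one label and not in the other is not a tested difference.

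KO-labelled dendritic cells without lysate had lower levels of 15 of the 39 genes and a higher level of 0. Among all genes tested, 9.23% were lower and 7.02% higher in the same contrast. The median log2 difference of the 39 genes was -0.21, against 0.0022 for all genes, and 37 of the 39 differences were negative. By role, the lower genes were 3 of 10 membrane proteins (Laptm5, Scarb2, Lamp1), 2 of 7 glycosaminoglycan enzymes (Sgsh, Arsb), 3 of 8 sphingolipid genes (Gm2a, Asah1, Psap) and 2 of 6 glycoprotein and glycogen enzymes (Man2b1, Neu1). All 5 genes of the group with proteolysis, acyl and phosphate removal were lower (Acp2, Grn, Ppt1, Acp5, Tpp1), and 0 of 3 regulators.

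Gm2a, the activator protein that presents GM2 ganglioside to beta-hexosaminidase A, differed most. Its log2 level was 13.80 and 13.79 in wild type alone and 13.35 and 13.31 in KO-labelled alone, 1.39-fold lower (-0.47 ± 0.067, adjusted p = 0.000434). Laptm5 was at 15.25 and 15.34 in wild type and at 14.96 and 14.81 in KO-labelled, 1.33-fold lower (-0.41 ± 0.085, adjusted p = 0.00485). In both genes the groups did not overlap. Man2b1, lysosomal alpha-mannosidase, was at 12.79 and 12.92 against 12.53 and 12.44, 1.29-fold lower (-0.37 ± 0.074, adjusted p = 0.00426). Sgsh was at 7.89 and 8.02 against 7.64 and 7.56, 1.28-fold lower (-0.35 ± 0.090, adjusted p = 0.016). Sgsh was thus lower both with lysate in wild type and by label without lysate, and these contrasts share the untreated wild-type libraries.

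The other 11 lower genes had differences between -0.35 (Acp2, lysosomal acid phosphatase) and -0.22 (Lamp1), with Acp5 nearest to the threshold (-0.23, adjusted p = 0.0495). Among the 24 that did not pass, Laptm4a (-0.21, adjusted p = 0.0637) and Manba (-0.22, adjusted p = 0.0654) came nearest. Lamp1, Scarb2, Tpp1 and Acp5 no longer passed when any 1 library of the groups compared was left out. The count of 15 was smaller in each of those fits. Without a KO-labelled alone library it also held genes that were not among the 15. It was 9 without either KO-labelled lysate library, although those enter this contrast only through the shared estimate of the spread. In a fit of only the groups compared it was 7, and 6.0% of all genes were lower, against 9.23% in the fit of all 4 groups. The lower levels of Laptm5, Man2b1, Gm2a and Acp2 passed in each of the 18 other settings.

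With lysate, KO-labelled cells had lower levels of 13 of the 39 genes and higher levels of 0, against 5.45% lower and 7.44% higher among all genes. The median difference was -0.20, against -0.0085 for all genes, and 38 of the 39 were negative. All 5 genes of proteolysis, acyl and phosphate removal were again lower, as were 4 of 8 sphingolipid genes (Gm2a, Asah1, Hexa, Psap), 3 of 10 membrane proteins (Laptm5, Lamp1, Cd63) and 1 of 6 glycoprotein and glycogen enzymes (Neu1). None of the 7 glycosaminoglycan enzymes and 0 of the 3 regulators passed.

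Gm2a was at 13.95 and 13.80 in wild type with lysate and at 13.42 and 13.43 in KO-labelled with lysate, 1.37-fold lower (-0.45 ± 0.067, adjusted p = 0.00107). Asah1, acid ceramidase, was at 11.89 and 11.73 against 11.43 and 11.42, 1.31-fold lower (-0.39 ± 0.081, adjusted p = 0.00827). Hexa, the alpha subunit of the enzyme that Gm2a assists, was also lower (-0.31, adjusted p = 0.00953). Ppt1, which removes palmitate from proteins, was at 10.20 and 10.26 against 9.90 and 9.85, 1.28-fold lower (-0.36 ± 0.075, adjusted p = 0.00878). Tpp1 was at 11.84 and 11.76 against 11.48 and 11.49, 1.24-fold lower (-0.31 ± 0.064, adjusted p = 0.00734). In each of these genes every KO-labelled library was below every wild-type one. These genes, like those described above, were named for passing the test, so such separation adds no support.

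This count rested on single libraries more than the others did. It was 13 with all libraries and smaller without either wild-type lysate library, when it also held genes that were not among the 13. Without either KO-labelled lysate library it was 1, and Gm2a alone still passed. With 1 KO-labelled lysate library, whose spread then came from the other groups, 77 and 180 genes of the whole table were lower, against 642 with both, so the loss was not limited to lysosomal genes. Gm2a was lower in each of the 18 other settings.

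**Figure D3:**
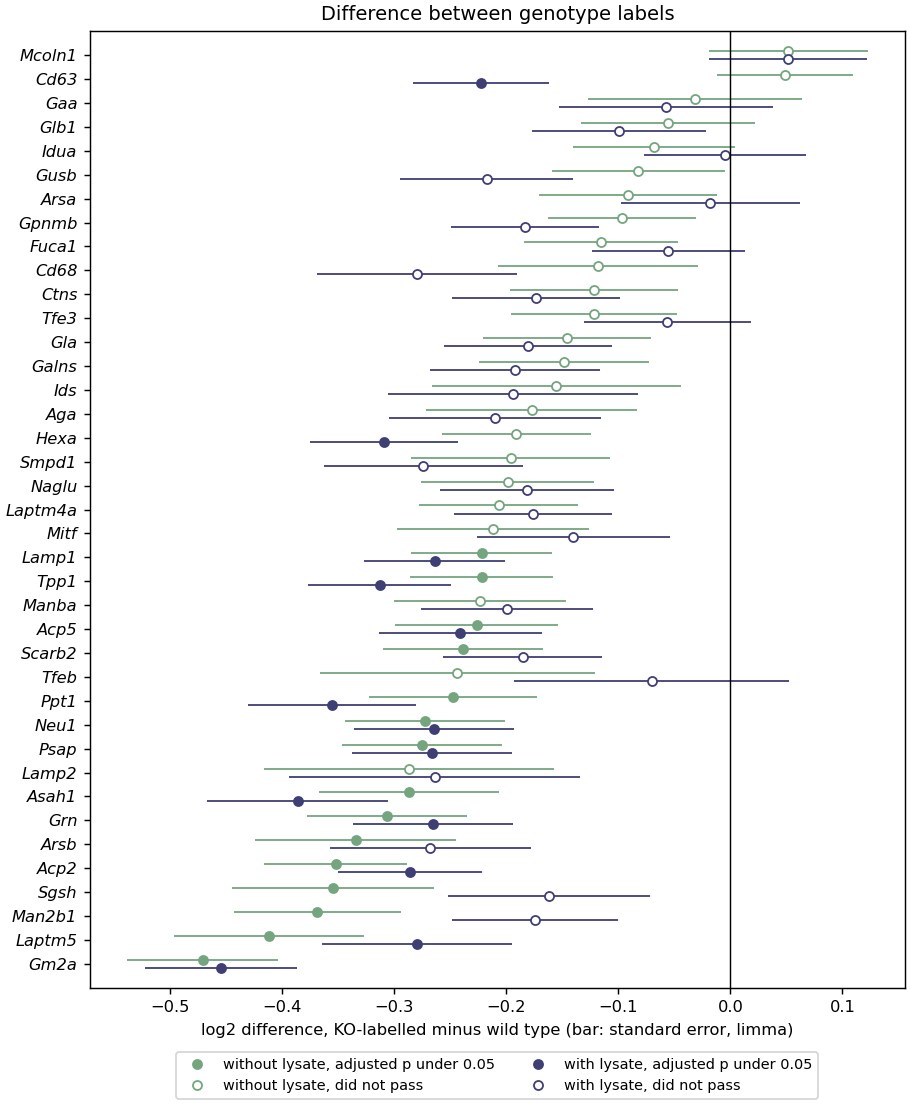
Log2 difference between KO-labelled and wild-type cells (x axis, bar: SE of the limma fit) of each gene (y axis), without lysate (green) and with lysate (dark blue), with filled points for adjusted p under 0.05. Nearly all points lie left of 0 and Gm2a is lowest in both treatments (-0.47 and -0.45).

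Both treatments shared 11 of the lower genes: Lamp1, Laptm5, Neu1, Asah1, Psap, Gm2a, Tpp1, Ppt1, Grn, Acp2 and Acp5. They were 73.3% of the genes lower without lysate and 84.6% of those lower with it. The differences in the 2 treatments had a Pearson correlation of 0.636 over the 39 genes and of 0.713 over all genes, and 38 of 39 had the same sign. Acp5, Psap and Tpp1 were both higher with lysate in each genotype label and lower in the KO-labelled cells under each treatment. Each lysate contrast shares a group of libraries with each label contrast, so the 4 calls of a gene are not independent. Of these calls, the lower level of Acp5 was lost in 11 of the 18 other settings without lysate and in 7 with it, that of Tpp1 in 10 and 3, and that of Psap in 3 and 5. For Acp5 in both treatments, Tpp1 without lysate and Psap with it, leaving out any 1 library of the groups compared was enough. The rise of Psap was lost in 4 settings in each label. Psap shows the pattern most evenly: KO-labelled cells with lysate (17.57 and 17.61) came back to the level of wild-type cells alone (17.54 and 17.61). The KO-labelled cells alone were lowest (17.34 and 17.26) and wild type with lysate highest (17.82 and 17.88). Genes past the threshold in none of these 4 contrasts numbered 14: Lamp2, Laptm4a, Mcoln1, Ctns, Glb1, Gusb, Gaa, Manba, Ids, Idua, Arsa, Smpd1, Tfeb and Tfe3.

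**Figure D4:**
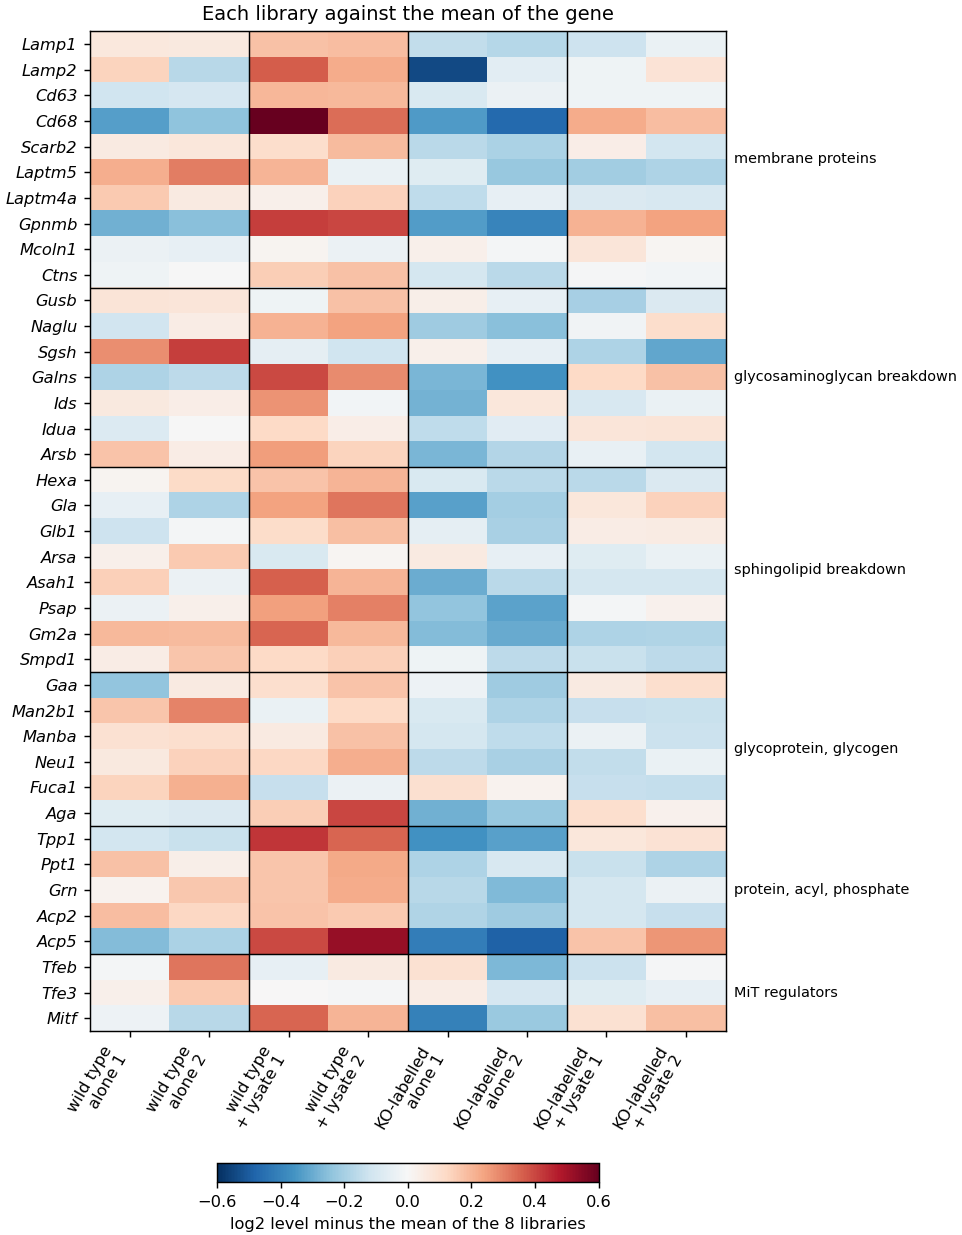
Log2 level in each of the 8 libraries (columns) minus the mean of the gene over all 8, for the 39 genes (rows) grouped by role, on a colour scale from -0.6 (blue) to 0.6 (red). Cd68, Gpnmb, Galns, Tpp1, Aga and Acp5 are red with lysate and blue without, and most other rows are redder in wild type than in KO-labelled libraries.

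Marker transcripts of other cell types also differed with the genotype label. Over all genes tested, 9.23% were lower and 7.02% higher in KO-labelled cells without lysate, and 5.45% and 7.44% with lysate. Of 10 neutrophil markers, 9 were lower in the KO-labelled cells without lysate and 9 with lysate, with median differences of -1.41 and -1.29. The summed neutrophil marker level, on the log2 scale, was 14.12 to 14.18 in wild type alone, 13.80 to 14.08 in wild type with lysate, 12.65 to 12.75 in KO-labelled alone and 12.57 to 12.69 in KO-labelled with lysate. Levels of the measured neutrophil markers varied widely, with log2 levels of 11.18 to 12.94 for S100a9 and of 4.46 to 4.88 for Elane. Ly6g, also on the list, had no value here. Of 12 macrophage markers, 6 were lower without lysate and 2 with lysate (summed level 16.04 to 16.12 and 15.99 to 16.01 in wild type, 15.83 to 15.91 and 15.83 to 15.87 in KO-labelled). Of 12 dendritic cell markers, 5 were higher and 1 lower without lysate, and 7 were higher with lysate (summed level 17.59 to 17.70 and 17.25 to 17.28 in wild type, 17.67 to 17.75 and 17.33 to 17.34 in KO-labelled). The part of other cell types in the lower lysosomal levels was not tested.

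Melanocyte transcripts were higher with lysate. Of the 13 listed markers 5 were measured, and 4 of them (Dct, Tyrp1, Pmel and Slc45a2) rose with lysate in both labels, while Kit fell. Tyr, Mlana and Sox10 are among the 8 without a value here. The summed level of the 5 was set mainly by Kit, which blood cells also express: 10.44 to 10.47 in wild type alone, 10.23 to 10.27 with lysate, 10.59 to 10.66 in KO-labelled alone and 10.36 to 10.50 with lysate. Gpnmb, Mitf and Cd63 are active in melanocytes as well as in phagocytes. On a linear scale per kb of transcript, Gpnmb gained 11773 units with lysate in wild type and 9294 in KO-labelled cells, and Cd63 gained 1427 and 161. On that scale Dct gained 14.5 and 19.4 units, Tyrp1 10.4 and 15.3, Pmel 13.6 and 17.1, and Mitf 58.5 and 61.5. These log2 values shrink the changes of genes with few reads, so the gains of the melanocyte markers are understated by an unknown amount. Dct and Tyrp1 were also higher in KO-labelled than in wild-type cells with lysate (log2 differences 0.29 and 0.38). What part tumour RNA had in the rises of Gpnmb, Mitf and Cd63 was not tested. With lysate, 8 of 12 dendritic cell markers fell in each label. Macrophage markers changed in both directions (2 of 12 rose and 4 fell in wild type, 2 rose and 1 fell in KO-labelled cells). Over all genes, 10.2% rose and 11.3% fell in wild type, and 8.28% rose and 6.92% fell in KO-labelled cells.

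The 3 regulators differed from each other. Mitf had log2 levels of 9.97 and 9.84 in wild type alone, 10.35 and 10.21 in wild type with lysate, 9.60 and 9.78 in KO-labelled alone, and 10.10 and 10.18 in KO-labelled with lysate. It rose with lysate in both labels, by 0.38 ± 0.086 (adjusted p = 0.00795) and 0.45 ± 0.086 (adjusted p = 0.00366), and every library with lysate was above every library without. Its differences between labels were -0.21 and -0.14 and did not pass. Tfeb had 9.07 and 9.40, 9.03 and 9.13, 9.17 and 8.81, and 8.95 and 9.07 in the same order of groups. The gap between the 2 untreated libraries of each label was wider than any group difference, and Tfeb passed in no contrast (-0.15 and 0.02 with lysate, -0.24 and -0.07 between labels, each ± 0.12). Tfe3 had 10.45 and 10.57, 10.42 and 10.41, 10.46 and 10.32, and 10.35 and 10.37. Its changes with lysate were -0.09 and -0.03, and its differences between labels -0.12 and -0.06, each ± 0.074, and none passed. TFEB and TFE3 act mainly through their entry into the nucleus, which transcript levels do not measure.

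**Figure D5:**
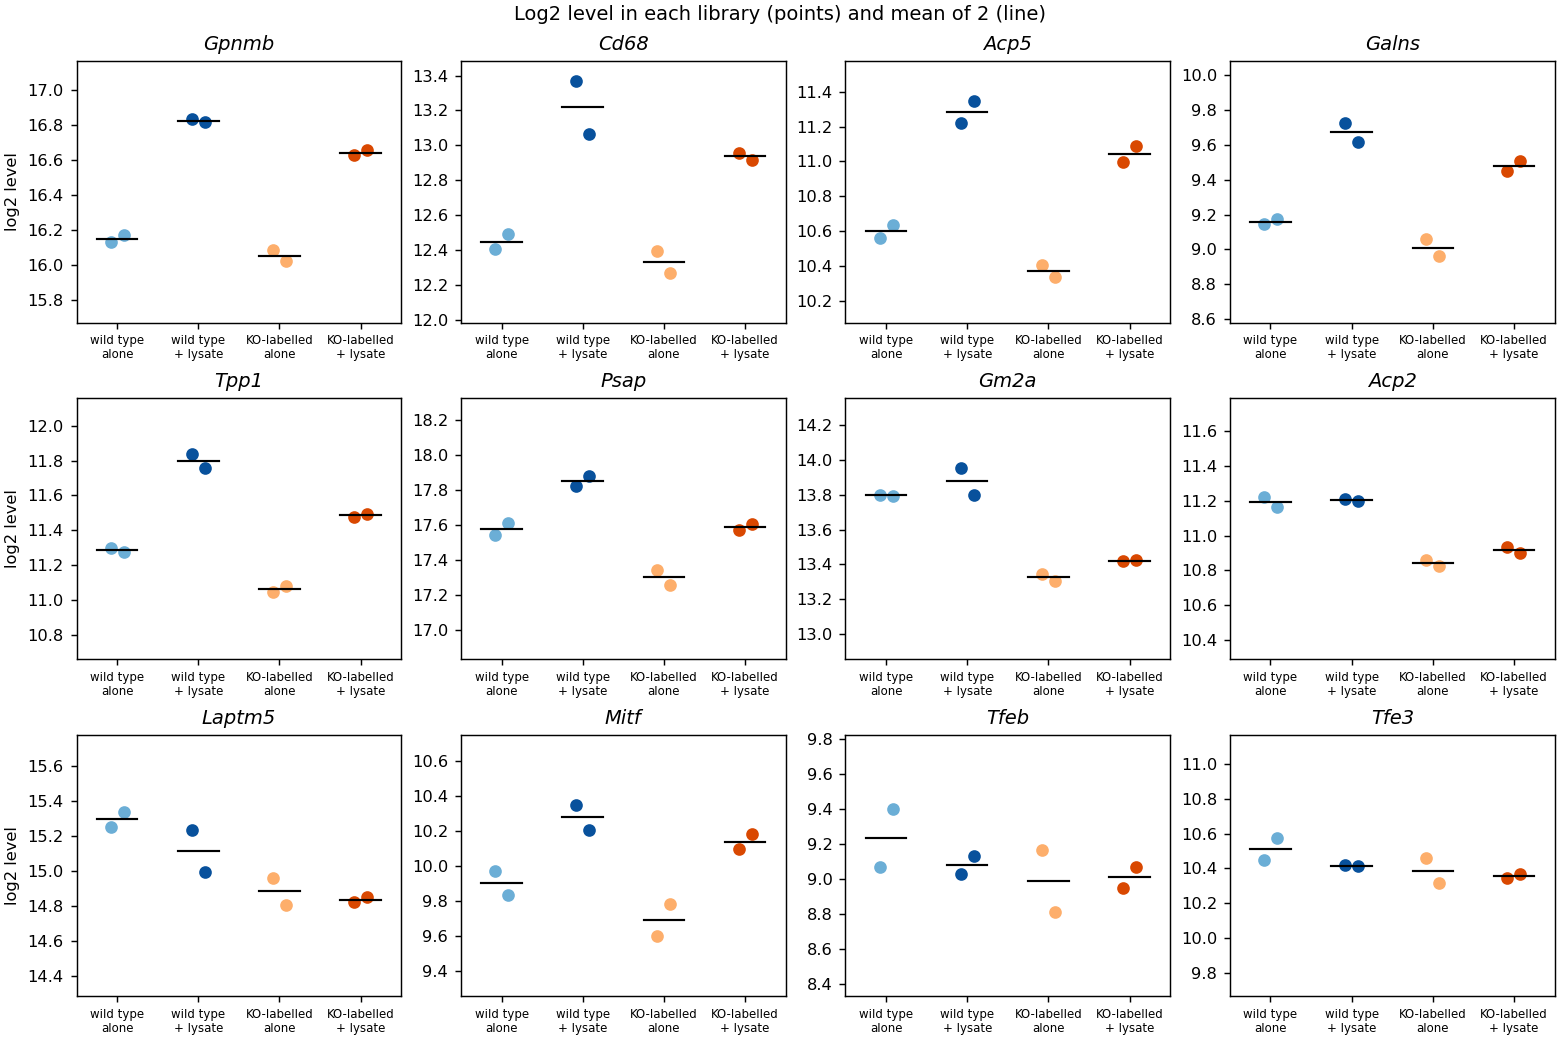
Log2 level (y axis) of 12 genes in each library (points) with the mean of 2 (line), for the 4 groups on the x axis, over a range of 1.5 in each panel. Gpnmb, Cd68, Acp5, Galns, Tpp1, Psap and Mitf are higher with lysate in both labels, Gm2a and Acp2 are lower in both KO-labelled groups, and Tfeb and Tfe3 passed in no contrast.

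Genes with and without the promoter motif were found both among those that changed and among those that did not pass. Of the 8 genes with CACGTG, lysate raised 2 (Gla and Naglu) and lowered 1 (Sgsh) in wild type, with a median change of 0.17. Of the 28 matched genes without it, 7 rose and 1 fell, with a median of 0.08. In KO-labelled cells 2 of 8 and 6 of 28 rose. Over all genes tested, 10.2% rose and 11.3% fell in wild type, and 8.28% rose in KO-labelled cells. Lamp1, with 4 copies, and Mcoln1, with 2, had changes of 0.12 and 0.03 in wild type and did not pass. Between labels without lysate, 2 of the 8 and 12 of the 28 were lower, and with lysate 1 of the 8 and 11 of the 28. Among all genes 9.23% were lower without lysate and 5.45% with it. Lamp1 was the gene with the motif that was lower in both treatments (-0.22 and -0.26). No test was made of these counts, and a window without the letters says nothing about the factors.

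Other lysosomal hydrolases and cofactors, a list of 31 measured genes, gave counts near those of the 39. Lysate raised 10 and lowered 3 in wild type (32.3% and 9.68%), and raised 12 and lowered 2 in KO-labelled cells (38.7% and 6.45%). Over all genes the shares were 10.2% and 11.3%, then 8.28% and 6.92%, so the lower shares were near those of all genes. Lipa, the acid lipase, rose by 0.59 and 0.51, Hpse, heparanase, by 0.61 and 0.58, and Hyal1, a hyaluronidase, by 0.74 and 0.66. Between labels, 15 of 31 were lower without lysate and 14 with lysate, and 0 were higher in either, with medians of -0.22 and -0.24, against 9.23% and 5.45% lower among all genes. Naaa, an amidase of bioactive lipids, had differences of -0.54 and -0.55. Also lower in both treatments were Smpdl3a (-0.57 and -0.38), Plbd1 (-0.53 and -0.25), Hgsnat (-0.26 and -0.40) and Fuca2 (-0.25 and -0.40). Of the genes named above for their rise with lysate, Lipa was lower in both treatments (-0.22 and -0.30). Hpse was lower with lysate (-0.24) and did not pass without it (-0.21), and Hyal1 passed in neither (0.21 and 0.13).

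Of 28 other lysosomal membrane proteins, lysate raised 6 and lowered 4 in wild type and raised 5 and lowered 1 in KO-labelled cells. Those are 21.4% and 14.3% in wild type, against 10.2% and 11.3% of all genes, and the shares of all genes in KO-labelled cells were 8.28% and 6.92%. The sugar phosphate transporter gene Slc37a2 rose by 0.83 and 0.77, and Npc1, which exports cholesterol, by 0.52 and 0.47. Between labels 4 of 28 were lower without lysate, led by Slc36a1 (-0.40), Slc29a3 (-0.41) and Tpcn1 (-0.33), and 1 with lysate (Npc1, -0.31; -0.27 and also lower without lysate). Against 9.23% and 5.45% of all genes, those shares were 14.3% and 3.57%. Medians of the label differences were -0.08 and -0.07, nearer to those of all genes than the medians of the hydrolase list were.

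Among 19 genes of mannose 6-phosphate tagging and sorting, lysate raised 3 and lowered 3 in wild type (15.8% each way). In KO-labelled cells it raised 2 (10.5%). Of all genes, 10.2% were higher and 11.3% lower in wild type, and 8.28% higher and 6.92% lower in KO-labelled cells. Gnptab, the catalytic part of the enzyme that makes the tag, rose by 0.55 ± 0.072 and 0.48 ± 0.072. Igf2r, a mannose 6-phosphate receptor, rose in both labels (0.27 and 0.27). Rab7 rose (0.36) and the adaptor Gga2 fell (-0.29) in wild type, and their changes in KO-labelled cells were 0.19 and -0.19 and did not pass. The difference of lysate effects was called in 0 of the 19. Between labels 1 was higher and 2 lower without lysate, and 2 were higher and 1 lower with it, shares near those of all genes (5.26% higher and 10.5% lower, then 10.5% and 5.26%). Igf2r was lower in both treatments (-0.23 and -0.23) and Gga3 higher in both (0.26 and 0.40). Nagpa, which uncovers the tag, was lower without lysate (-0.39).

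Of 21 genes that control MiT factors at the lysosome, lysate raised 5 and lowered 1 in wild type (23.8% and 4.76%). In KO-labelled cells it raised 2 and lowered 1 (9.52% and 4.76%). The shares of all genes were 10.2% and 11.3% in wild type and 8.28% and 6.92% in KO-labelled cells. Fnip2, a partner of folliculin, rose by 0.68 ± 0.076 and 0.61 ± 0.076. The small GTPase gene Rraga rose (0.39) and Rptor, for the raptor subunit of mTORC1, fell (-0.29) in wild type, with changes of 0.27 and -0.19 in KO-labelled cells that did not pass. Rragc rose in both labels (0.29 and 0.24). The calcineurin gene Ppp3ca fell in KO-labelled cells (-0.29) and did not pass in wild type (-0.09). The difference of lysate effects was called in 0 of the 21. Between labels 2 were higher and 2 lower in each treatment (9.52% each), near the shares of all genes without lysate and above the 5.45% lower with it. Tsc1 (0.31 and 0.44) and Mtor (0.26 and 0.35) were higher and Lamtor2, a subunit of the Ragulator scaffold, lower (-0.28 and -0.45).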

How the data were processed

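RNA had been sequenced from purified dendritic cells with a stranded poly(A) kit, per the labels' protocols. The deposited values are log2 levels per Entrez gene. The title of the table, and the mention of DESeq2 beside STAR, deepTools and build mm9 in the submitters' processing notes, led to their being read as the authors' regularized logarithm of read counts. The sources used here give no versions, counting tool, strand setting or annotation. Such values are scaled between libraries and understate changes of genes with few reads. With no counts, depth and counting error are unknown. Reads of overlapping or near-identical genes could have been shared or split.

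Groups came from the sample titles. The labels do not state whether both libraries of a group had their own mice or cultures. A p-value therefore reflects the scatter between these libraries, and that scatter may be technical only. Entrez numbers were matched to GRCm38.p6 symbols (11744 matched, 42 did not). Lengths came from the longest coding transcript on GRCm38 (97.5% of genes), and promoters from RefSeq on GRCm38.p6, not the build of the reads.

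A filter on low values kept the 11785 genes with a mean of 4 or more in some group and removed 1. They were tested with limma 3.58.1 in R 4.3.3, with lmFit on the means of all 4 groups and eBayes with a mean-variance trend. The fit had 4 residual and 9.33 prior degrees of freedom. Each test was two-sided, p-values were adjusted by Benjamini and Hochberg's method over every gene tested, and the threshold was 0.05. The script was tested on simulated data. Tables and figures were made with Python 3.11.15, pandas 2.3.3 and matplotlib 3.10.9.

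The members, the comparison lists and the rule for naming genes were chosen with earlier results of these data known. Values of each library are given for the 4 genes with the largest change in each contrast, the regulators and Gpnmb, and for Psap, Tpp1, Fuca1 and Cd63, which were added after their values were seen. In other lists up to 3 genes with the smallest p are named. Of 6 T and B cell markers 0 were in the table. Alternatives were a replicate block, no filter or a filter at 6, median centring, quantile normalization, eBayes without a trend or robust, only the groups compared, removal of trends on GC content and transcript length within libraries, and leaving out each library. A library left alone in its group is assumed to vary like the others.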

Additional observations from a re-analysis of the deposited data

How the results depend on the processing

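Of the 51 calls of single genes behind the report, 17 held in all 18 other settings and 0 changed direction. Removing the trend on GC content and length raised calls over the whole table as well as among the 39 genes: 18 genes were higher with lysate in wild type, 15 higher and 2 lower with lysate in KO-labelled cells (10 and 0 in the report), 24 lower in KO-labelled cells alone and 26 with lysate. Among all genes the shares were then 14.6% higher with lysate in wild type, and 12.9% higher and 13.4% lower with lysate in KO-labelled cells. Against wild type, 14.3% of all genes were lower in KO-labelled cells alone and 12.1% with lysate. Under quantile normalization 1 gene was lower with lysate in KO-labelled cells, against 7.4% of all genes. A fit of only the groups compared gave 7 genes lower in KO-labelled cells alone (6.0% of all genes). When each library was left out in turn, genes lower with lysate in wild type ranged from 0 to 3, genes higher with lysate in KO-labelled cells from 5 to 10, genes lower in KO-labelled cells alone from 7 to 15 and with lysate from 1 to 18. Fewer samples enter these fits; the cause of the other moves was not tested.

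With the replicate number as a block, lysate raised 11 and lowered 2 genes in wild type and raised 9 in KO-labelled cells. Against wild type, 10 were lower in KO-labelled cells alone and 8 with lysate. Among all genes in that fit, lysate raised 8.25% and lowered 8.67% in wild type and raised 6.61% in KO-labelled cells. The shares of all genes lower in KO-labelled cells were 7.6% alone and 3.71% with lysate. What the replicate numbers stand for is not stated. Deviations of same-numbered libraries correlated between -0.61 (wild type alone with KO-labelled alone) and 0.26 over the pairs of groups, so the numbers as given were not taken to pair the libraries. A crossed replicate block for KO-labelled cells alone was chosen after seeing the data. It gave 1 gene lower with lysate in KO-labelled cells (12.3% of all genes). Against wild type, 21 were lower in KO-labelled cells with lysate (10.6% of all genes).

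Reversals touched values that had not passed. Gpnmb in KO-labelled cells alone became 0.040 under quantile normalization. With the GC and length trend removed, the lysate changes became 0.0095 for Tfeb in wild type, and 0.011 and 0.0078 for Tfe3 in wild type and KO-labelled cells. With single libraries left out, Tfeb ranged from -0.32 to 0.015 in wild type and from -0.16 to 0.20 in KO-labelled cells, and Tfe3 from -0.10 to 0.043 in KO-labelled cells. Without counts, limits by depth could not be given.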
